A study of Mus musculus with 28 samples.

Results

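Expression of 9 genes that specify or mark the lineages of cortical interneurons was followed through sorted nuclei of the mouse motor cortex. They were chosen by name: Lhx6, Sox6, Satb1 and Maf for the medial ganglionic eminence, Npas1, Prox1 and Adarb2 for the caudal ganglionic eminence, and Dlx1 and Dlx6os1, which both lineages share. These are 9 of the 41549 genes in the deposited count tables, and all 9 had counts. Of these, 8 stood under their own name, while Dlx6os1 was split over a pair of entries and was matched by its Ensembl identifier (ENSMUSG00000090063, an antisense transcript), the other entry holding 8 counts in all 28 libraries.

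The nuclei came from 7 mice. Each animal had an adeno-associated virus (AAV) vector for the nuclease Cas9 injected into the motor cortex of each side: AAV-Cas9-miR-124-empty on the left and AAV-Cas9-miR-124-g4 on the right, called empty and g4 here. Nuclei were then sorted by an HA tag on Cas9 into HA-positive and HA-negative nuclei, which gave 4 groups of 7 libraries (empty HA-negative, g4 HA-negative, empty HA-positive and g4 HA-positive). All 4 groups come from the same animals, all of them injected, so there is no uninjected control, and vector and side of the brain cannot be told apart. The sources used here give no strain, no age, no promoter for Cas9 and no meaning for g4.

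Cortical interneurons are inhibitory cells that use GABA and migrate into the cortex from the ganglionic eminences of the embryonic forebrain. The medial eminence yields the parvalbumin and somatostatin classes, in which Lhx6 acts early and Sox6, Satb1 and Maf act in migration, maturation and the choice of subtype. The caudal eminence yields the Vip and many of the Lamp5 and Sncg cells, in which Prox1 supports maturation and Npas1 and Adarb2 are widely used markers. Homeodomain factors of the Dlx family act before both lineages part. Several of these genes are also known outside interneurons: Sox6 in oligodendrocyte precursors, Prox1 in the oligodendrocyte lineage, Maf in microglia and Satb1 in other cortical neurons.

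Total counts were 248612 to 902944 per library, with 8687 to 13668 genes detected, and 4 HA-positive libraries (empty of animals 17, 21 and 22 and g4 of animal 18) had fewer than 10000. The g4 HA-positive library of animal 19 stood apart: its 11 oligodendrocyte markers summed to 1838 CPM (counts scaled to library size) and its 11 microglia markers to 376, against 182 to 408 and 2.55 to 47.2 in the other 6 libraries of that group. Its 11 striatal projection neuron markers summed to 764 CPM against 178 to 283, and its 10 oligodendrocyte precursor markers to 532 against 241 to 374. Its summed level of the 9 regulators was 347 CPM, against 509 to 624 in those 6. The members' results for g4 HA-positive nuclei against HA-negative ones are therefore also given without it. A member's count in 1 library ranged from 0 to 192, so levels of the scarcer members carry a large counting error. Where a member had 0 counts in a library, the level that a count of 0 allows (3 counts) lay between 3.27 and 9.92 CPM.

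Both vectors carry the name of the microRNA miR-124, so the 3′ untranslated regions (UTRs) of the members were searched for matches to its seed, GTGCCTT or TGCCTTA on the transcript strand. Taking the longest 3′ UTR annotated for each of 8 protein-coding members, Prox1 had 2 matches and the other 7 had 0, while 19.6% of 21045 genes with a 3′ UTR had at least 1. The UTR of Prox1 is 5185 bases long and that of Npas1 only 114, against a median of 960 over all genes. The matches in Prox1, read from GENCODE M21 on GRCm38, are shown with their surroundings, 5′ to 3′ on the transcript strand, because Prox1 is the 1 member of the 8 with a match, which 1 of its 3 annotated 3′ UTRs holds. Capitals mark the match.
Prox1, chr1:190120465-190120494, minus strand: caaatgtccttGTGCCTTctgtggctttct
Prox1, chr1:190118099-190118128, minus strand: aactgccttgtGTGCCTTccatcttctcct
A match is a description of the sequence and not a measured site.

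Dlx proteins and Lhx6 are homeodomain proteins, a class whose core DNA motif is TAATTA, so the start-site windows of the members (250 bases before to 50 after, RefSeq, GRCm38.p6) were searched for it. The motif reads the same on both strands. Windows were found for 8 members, 21 in all, and 3 windows of 2 members (Dlx6os1 and Adarb2) held the motif, against 5.29% of 32851 windows of all genes. The Dlx6os1 window with 2 matches and the Adarb2 window with 1 are printed, with the motif in capitals, since they are the members from the shared and the caudal set whose window holds these letters.
Dlx6os1, chr6:6869484-6869783, minus strand: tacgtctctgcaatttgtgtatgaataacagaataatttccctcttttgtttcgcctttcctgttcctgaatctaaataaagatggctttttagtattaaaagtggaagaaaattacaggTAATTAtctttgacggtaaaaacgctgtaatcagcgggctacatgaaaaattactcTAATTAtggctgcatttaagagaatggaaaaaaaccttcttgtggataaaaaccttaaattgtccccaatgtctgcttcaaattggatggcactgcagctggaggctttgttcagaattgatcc
Adarb2, chr13:8202616-8202915, plus strand: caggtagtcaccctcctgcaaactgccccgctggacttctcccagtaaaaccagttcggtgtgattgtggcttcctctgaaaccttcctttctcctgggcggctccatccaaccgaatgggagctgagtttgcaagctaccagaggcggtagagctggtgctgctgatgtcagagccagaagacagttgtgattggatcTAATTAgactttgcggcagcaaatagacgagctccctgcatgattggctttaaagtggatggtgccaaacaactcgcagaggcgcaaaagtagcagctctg

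The first question is whether the regulators differed between HA-positive and HA-negative nuclei of the same hemisphere. Satb1 was higher in HA-positive than in HA-negative nuclei with both vectors, Maf passed the test with the empty vector and Sox6 with g4, and 0 members were called lower. A gene was called at an adjusted p under 0.05 (edgeR's quasi-likelihood test, Benjamini-Hochberg over all genes). With the empty vector 6 members had enough counts to be tested and 2 were called higher, where 3.5% of 5538 genes tested were called higher. With g4 7 were tested and 2 called higher, where 3.32% of 6264 genes were. The median log2 fold change of the tested members was 0.89 with the empty vector and 0.57 with g4, against 0.01 over all genes in each comparison. In bulk libraries, fewer cells of a type and less RNA per cell cannot be told apart.

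**Figure D1:**
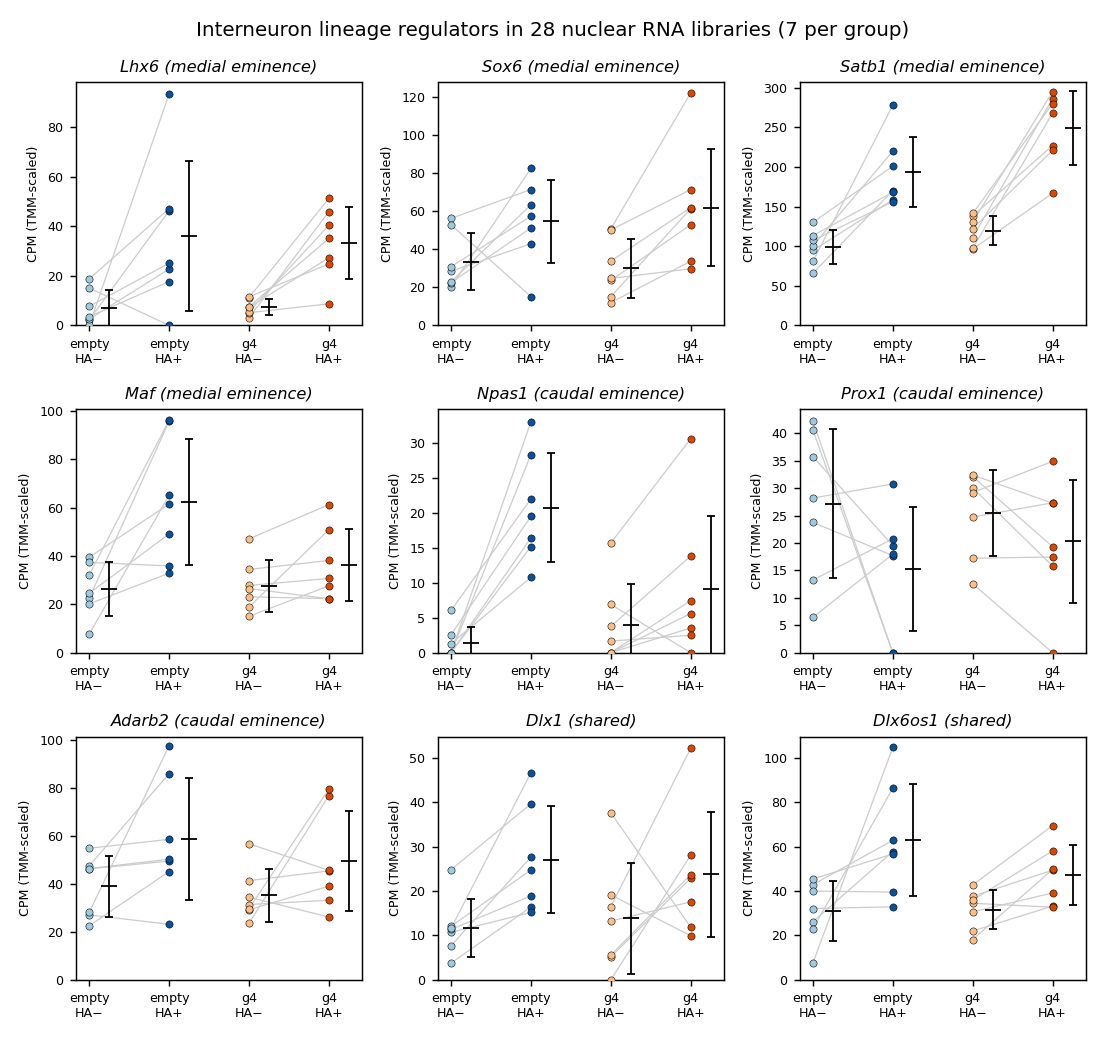
Level of each of the 9 regulators in 28 libraries, in CPM scaled by TMM factors (vertical axis, linear, a scale of its own per gene) by vector and sorted fraction (horizontal axis); points are libraries, grey lines join the libraries of 1 animal and 1 vector, and the bar beside each group is the mean ± SD (n = 7). For Satb1 every HA-positive library (lowest 156 CPM) lies above every HA-negative one (highest 141), while for Prox1 the lines run in both directions.

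Satb1 (chr17:51736187-51833290, minus strand) encodes a chromatin organiser needed by maturing somatostatin and parvalbumin cells. It was the member with the most counts (2377 over 28 libraries). In empty HA-negative libraries it ranged from 65.8 to 130 CPM with a median of 101, and in empty HA-positive ones from 156 to 278 with a median of 170. In g4 HA-negative libraries the range was 96.4 to 141 (median 122) and in g4 HA-positive ones 167 to 295 (median 268). The groups of the 2 fractions did not overlap with either vector. Of genes tested, 1.12% with the empty vector and 1.05% with g4 were higher in HA-positive nuclei without overlap. Another 1.93% and 0.702% were lower without overlap. The log2 fold change was 1.03 ± 0.19 (SE) with the empty vector (adjusted p 0.000606) and 1.07 ± 0.15 with g4 (adjusted p 1.12e-05), higher in 7 of 7 animals each time. Its call stood under every alternative tried, 15 with the empty vector and 16 with g4, among them the fit without the g4 library of animal 19 (1.16, adjusted p 2.96e-07).

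Maf (chr8:115682942-115707794, minus strand) encodes a leucine zipper factor of migrating medial eminence cells. It went from 7.67 to 39.5 CPM (median 24.6) in empty HA-negative libraries to 32.9 to 96.3 (median 61.5) in empty HA-positive ones, so the ranges overlapped only between 32.9 and 39.5. The difference was called, at 1.28 ± 0.34 (adjusted p 0.0183, higher in 6 of 7 animals). With g4 the ranges, 15.0 to 47.1 and 22.3 to 61.3 CPM, overlapped over most of their width, and the log2 fold change was 0.43 ± 0.34 (adjusted p 0.578), or 0.42 (adjusted p 0.591) without the library of animal 19. The difference between these fraction effects, which is the same contrast as that between the g4 effects in the 2 fractions, was -0.83 ± 0.48 and did not pass (adjusted p 0.996). The call with the empty vector was lost without animal 17, 19 or 20 (adjusted p 0.0659 to 0.0883).

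Sox6 (chr7:115470872-116038796, minus strand), a factor that acts after Lhx6 in the same cells, was called with g4. Its level was 12.1 to 50.8 CPM (median 24.7) in g4 HA-negative and 29.8 to 122 (median 61.5) in g4 HA-positive libraries, where animal 17 was highest at 122. The log2 fold change was 1.08 ± 0.34 (adjusted p 0.0464), higher in 7 of 7 animals. With the empty vector the levels were 20.3 to 56.3 (median 28.5) and 15.1 to 82.6 (median 57.5), at 0.75 ± 0.35 (adjusted p 0.231), higher in 6 of 7. The call with g4 lies close to the threshold. It was lost without animal 17, 20, 21, 22 or 23, with limma voom, with library totals alone, with all 28 libraries in 1 model and without the HA-positive libraries under 10000 genes (adjusted p up to 0.157). Without the g4 library of animal 19 it was 1.20 (adjusted p 0.0178).

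Lhx6 (chr2:36081953-36105408, minus strand), the factor that defines postmitotic cells of the medial eminence, had too few counts in HA-negative libraries to pass the filter, 29 in the 7 empty and 30 in the 7 g4 ones. It had 99 counts in empty and 122 in g4 HA-positive libraries. Per library it lay at 0 to 18.8 CPM (median 3.57) in empty HA-negative and 0 to 93.5 (median 25.1) in empty HA-positive nuclei, with animal 22 at 0 among the latter. With g4 it lay at 3.14 to 11.5 (median 7.36) and at 8.72 to 51.3 (median 35.1), and the lowest value of the higher range was that of animal 19. Fitted without a filter on low counts, the log2 fold change was 2.26 ± 0.57 with the empty vector (adjusted p 0.00376, higher in 6 of 7 animals) and 2.11 ± 0.48 with g4 (adjusted p 0.000903, higher in 7 of 7). The counts of Lhx6 lie mostly in the HA-positive groups, so these fits are descriptions and are not counted as calls. With that library of animal 19 left out, the remaining 6 g4 HA-positive libraries lay at 24.9 to 51.3 CPM. Lhx6 then passed the filter through its HA-positive counts, so its call in that fit is not counted here.

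The caudal set did not move as one. Npas1 (chr7:16455721-16477728, minus strand), a basic helix-loop-helix factor, was the scarcest member with 108 counts over 28 libraries and was tested in no comparison. It had 5 counts in the empty HA-negative group, with 4 of 7 libraries at 0, and 62 in the empty HA-positive group, with none at 0. The levels, 0 to 6.04 CPM against 10.8 to 33.1, did not overlap, and the fit without a filter gave 3.76 ± 0.88 (adjusted p 0.00127, higher in 7 of 7). Of the 5538 genes tested, to which Npas1 does not belong, 1.12% were higher without overlap. Its counts lie almost all in the HA-positive group, so this fit is a description and is not counted as a call. With g4 it had 12 and 29 counts, at 0 to 15.7 and 0 to 30.6 CPM, and the same fit gave 1.26 ± 0.83 (adjusted p 0.469). Without the library of animal 19 the HA-positive range was 2.49 to 30.6.

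Prox1 (chr1:190118035-190170714, minus strand), a homeodomain factor that supports caudal eminence cells after migration, was the 1 tested member below 0 in both comparisons. Its level was 6.44 to 42.2 CPM (median 28.2) in empty HA-negative and 0 to 30.8 (median 18.0) in empty HA-positive libraries, with animals 17 and 19 at 0. With g4 it was 12.6 to 32.4 (median 29.2) and 0 to 34.9 (median 19.3), with animal 18 at 0. The 3 HA-positive libraries at 0 include 2 with fewer than 10000 genes. The log2 fold changes, -0.70 ± 0.55 (adjusted p 0.538) and -0.32 ± 0.41 (adjusted p 0.767), did not pass, and Prox1 was lower in 4 of 7 animals with each vector. Without the library of animal 19 the value with g4 was -0.28 (adjusted p 0.809).

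Adarb2 (chr13:8202866-8768747, plus strand) encodes a relative of the RNA-editing deaminases without known editing activity. It stood at 22.6 to 54.8 CPM (median 46.3) in empty HA-negative and 23.1 to 97.6 (median 50.3) in empty HA-positive libraries. With g4 the levels were 23.6 to 56.7 (median 31.4) and 26.2 to 79.5 (median 45.4). The fractions overlapped with both vectors, and the log2 fold changes were 0.65 ± 0.31 (adjusted p 0.255) and 0.48 ± 0.30 (adjusted p 0.444), the latter 0.60 (adjusted p 0.265) without the library of animal 19.

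Of the shared members, Dlx6os1 (chr6:6820189-6871592, minus strand), a long noncoding RNA also known as Evf2 that modulates the neighbouring Dlx genes, lay at 7.52 to 45.4 CPM (median 32.1) in empty HA-negative and 32.9 to 105 (median 57.8) in empty HA-positive libraries. The log2 fold change of 1.07 ± 0.34 just missed the threshold (adjusted p 0.0517, higher in 6 of 7 animals), and it passed with DESeq2 (adjusted p 0.0213) and with limma voom (adjusted p 0.0394). With g4 the levels were 18.1 to 42.7 and 32.7 to 69.4, at 0.57 ± 0.29 (adjusted p 0.306), or 0.65 (adjusted p 0.213) without the library of animal 19. Dlx1 (chr2:71528113-71533981, plus strand) lay at 3.76 to 24.8 CPM in empty HA-negative and 15.2 to 46.7 in empty HA-positive libraries, higher in 7 of 7 animals, but was too scarce to be tested there (1.18 ± 0.57 without a filter, adjusted p 0.238). With g4 it was tested, at 0.74 ± 0.48 (adjusted p 0.472), and without the library of animal 19 it failed the filter, with HA-positive levels of 9.92 to 52.2 CPM. Whether counting used strand is not given, so reads of Dlx1 and its antisense partner Dlx1as (268 and 299 counts over 28 libraries), and of Dlx6os1 and the Dlx6 gene inside it (630 and 140 counts), cannot be told apart with certainty.

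**Figure D2:**
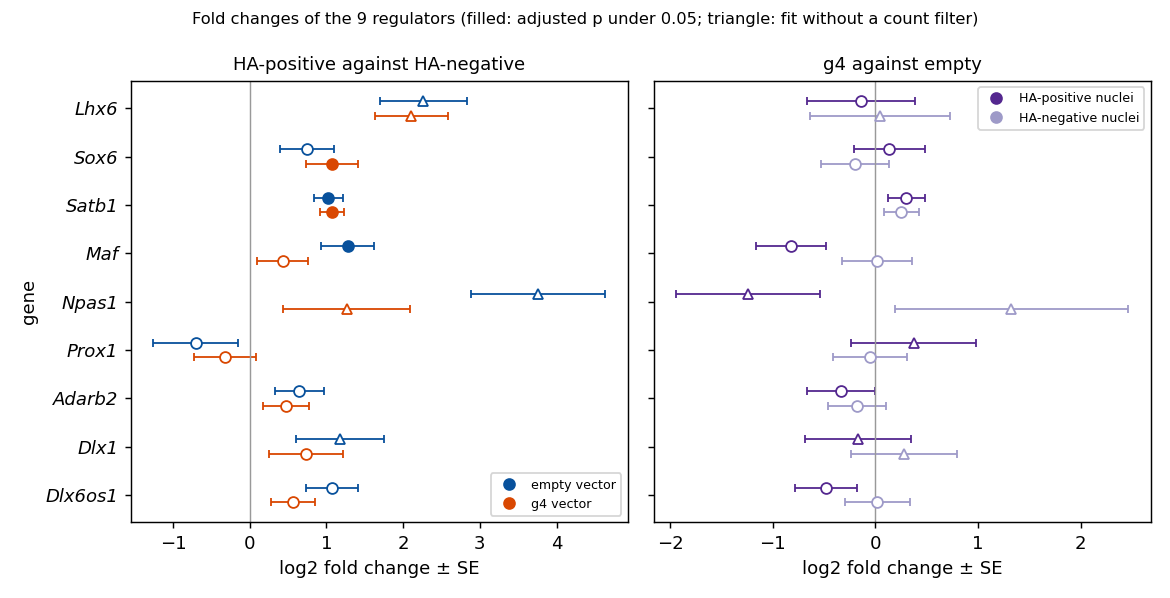
Log2 fold change ± SE of the 9 regulators (horizontal axis) between fractions (left panel, by vector) and between vectors (right panel, by fraction). Filled circles passed an adjusted p of 0.05, open circles were tested and did not pass, and triangles are members fitted without a count filter because they failed it; the filled circles are Satb1 with both vectors, Maf with empty and Sox6 with g4, and the right panel has none.

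The mean level over 28 libraries ran from 8.81 CPM for Npas1 to 165 for Satb1, a scale that also depends on gene length. Per kilobase of annotated exon, the mean over 28 libraries was highest for Satb1 (8.68 CPM per kb) and Dlx6os1 (8.36). Maf (4.62), Lhx6 (4.37), Dlx1 (3.54) and Adarb2 (3.47) followed, then Sox6 (3.04), Npas1 (2.93) and Prox1 (2.63). By group, these levels changed order: in empty HA-positive libraries Lhx6 (7.51) and Npas1 (6.90) stood above Adarb2 (4.47) and Prox1 (1.82), whereas in empty HA-negative libraries Lhx6 (1.49) and Npas1 (0.469) were the lowest of the 9. Nuclear RNA holds introns, and whether intronic reads were counted is not given, so this scale is approximate, and genes were not tested against each other.

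Summed by origin, the medial set stood higher in HA-positive nuclei in every animal, and the caudal set did not. Satb1 was the largest part of the medial sum, with a mean of 193 CPM in empty HA-positive libraries. In animal 22 with the empty vector, Lhx6 (0 against 15.1 CPM) and Sox6 (15.1 against 53.0) were lower in HA-positive nuclei. Maf was higher there (49.1 against 24.6). The counts of animals below hold for the sum with Satb1. The sum of Lhx6, Sox6, Satb1 and Maf was 166 ± 33.0 CPM (SD, n = 7) in empty HA-negative and 347 ± 77.1 in empty HA-positive libraries. With g4 it was 185 ± 31.5 and 381 ± 82.3, so the ratio of means was 2.09 and 2.06 and 7 of 7 animals were higher with each vector. The sum of Npas1, Prox1 and Adarb2 was 67.6 ± 14.2 and 94.6 ± 28.2 with the empty vector and 64.7 ± 12.6 and 78.8 ± 24.5 with g4, higher in 5 and 4 of 7 animals. The medial to caudal ratio per library was 2.54 ± 0.72 in empty HA-negative, 4.10 ± 1.95 in empty HA-positive, 2.94 ± 0.74 in g4 HA-negative and 5.17 ± 1.52 in g4 HA-positive libraries. It was higher in the HA-positive library of 6 of 7 animals with the empty vector and 5 of 7 with g4, and the ranges overlapped (1.87 to 3.81 against 2.16 to 6.82, and 1.94 to 4.00 against 2.73 to 6.50). Without the library of animal 19, the g4 HA-positive medial sum was 403 ± 63.2, the caudal sum 84.6 ± 20.7 and the ratio 5.08 ± 1.65 (n = 6). The ratio without Satb1 was 1.03 ± 0.42 in empty HA-negative and 1.91 ± 1.37 in empty HA-positive libraries, and 1.04 ± 0.37 and 1.82 ± 0.80 with g4. Without Adarb2 it was 9.15 ± 8.82 and 10.8 ± 5.53 with the empty vector, a difference well within the SD. With g4 the ratio without Adarb2 was 6.30 ± 1.11 and 13.5 ± 3.55. No test was made of these sums. The sum of Dlx1 and Dlx6os1 was 2.11 times higher in HA-positive nuclei with the empty vector (7 of 7 animals) and 1.56 times with g4 (6 of 7).

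**Figure D3:**
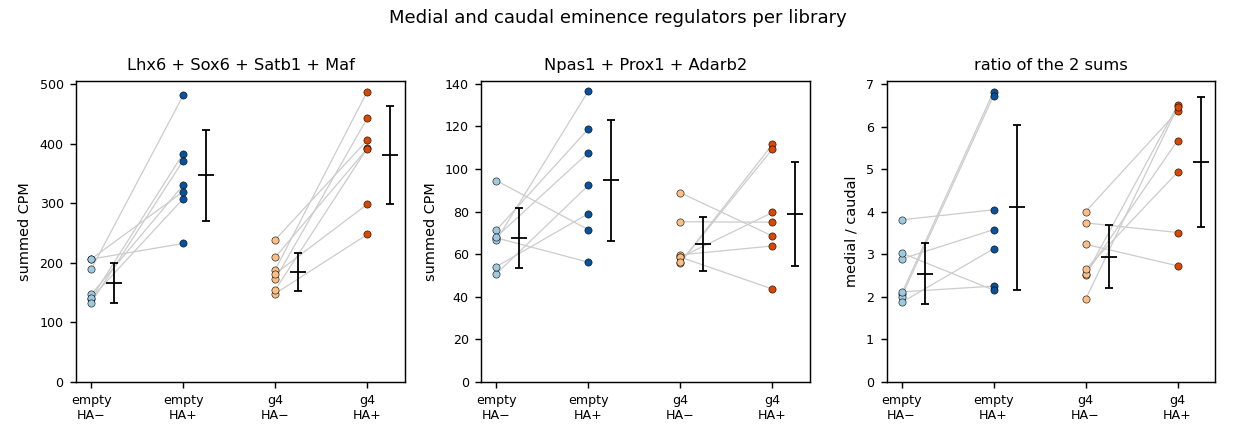
Summed CPM of the 4 medial and the 3 caudal eminence regulators and the ratio of these sums (vertical axes, linear) by vector and fraction; points are libraries, grey lines join the libraries of 1 animal and 1 vector, and bars are the mean ± SD (n = 7). Every line of the medial panel rises from HA-negative to HA-positive, while the caudal panel has lines in both directions.

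Markers of cell types also differed in level between the sorted fractions, and their relation to the regulators was not tested. The 4 genes of the GABA identity list, among them Gad1, Gad2 and Slc32a1, were all called higher in HA-positive nuclei with both vectors. Gad1, which encodes a GABA-synthesising enzyme, went from 205 ± 56.1 to 706 ± 226 CPM with the empty vector (log2 fold change 1.83 ± 0.18, adjusted p 8.15e-08) and from 201 ± 48.5 to 639 ± 193 with g4 (1.67 ± 0.19, adjusted p 4.44e-06). Of the medial eminence subclass markers 8 of 10 tested were called higher with the empty vector and 9 of 11 with g4, among them the neuropeptide gene Sst (2.22 ± 0.19 and 2.10 ± 0.19) and the calcium-binding protein gene Pvalb (2.82 ± 0.43 and 2.30 ± 0.36). Pvalb stood at only 15.5 ± 12.3 CPM in empty and 15.3 ± 8.68 in g4 HA-negative libraries. A gene this scarce can pass the count filter through its HA-positive counts, so these numbers of calls are descriptions. Of the caudal eminence subclass markers 1 of 6 was called higher with each vector. It was the cannabinoid receptor gene Cnr1 with the empty vector (0.72 ± 0.19, adjusted p 0.0191) and the neuropeptide gene Vip with g4 (1.33 ± 0.28, adjusted p 0.00212), and Cnr1 lost its call with the animal as a block and with library totals alone. The median log2 fold change of the tested markers was 1.61 and 1.74 for the medial list and 0.67 and 0.37 for the caudal one, against 0.01 over all genes.

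Calls among other regulators of these lineages differed by list. Of the other medial eminence regulators 0 of 4 were called with the empty vector and 1 of 6 with g4, a call absent with limma voom, with library totals alone and without the libraries under 10000 genes. Of the other caudal regulators 0 of 3 were called with either vector by edgeR, and DESeq2 called 1 lower with the empty vector. Of the other Dlx and shared regulators, 1 of 2 tested was called higher and 1 lower with the empty vector, and 2 of 4 higher and 1 lower with g4. Dlx1as was among those called higher with g4 (2.11 ± 0.53). It stood at 8.77 ± 10.8 CPM in g4 HA-negative and 38.4 ± 14.7 in g4 HA-positive libraries. Dlx1as thus passed the count filter through its HA-positive counts, and its call is a description only. Meis2, a homeobox gene also prominent in striatal neurons, was called lower with both (-1.63 ± 0.37 and -1.05 ± 0.23), but not with the empty vector once the HA-positive libraries under 10000 genes were left out.

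Markers of other cells mostly stood lower in HA-positive nuclei. Of all genes tested, 3.5% of 5538 with the empty vector and 3.08% of 6264 with g4 were called lower. Markers nearly absent from HA-positive nuclei passed the count filter through their HA-negative counts. The numbers of markers called lower are therefore descriptions. Of the striatal projection neuron markers, 6 of 6 were called lower with the empty vector and 6 of 7 with g4, and their summed level was 920 to 2600 CPM in empty HA-negative against 140 to 329 in empty HA-positive libraries. With g4 it was 364 to 2034 against 178 to 764, and the highest HA-positive value without the library of animal 19 was 283. Of the oligodendrocyte markers 8 of 9 and 7 of 10 were called lower, and their sum was 1504 to 2487 against 231 to 551 CPM with the empty vector and 1667 to 3146 against 182 to 1838 with g4. With library totals alone the count with g4 was 2 of 10, and without the library of animal 19 it was 10 of 11. Of the microglia markers 5 of 5 and 4 of 6 were called lower, with sums of 279 to 652 against 6.61 to 43.1 CPM with the empty vector and 425 to 675 against 2.55 to 376 with g4, and Cx3cr1, P2ry12, C1qa, C1qc and Gpr34 at 0 in every empty HA-positive library. Oligodendrocyte precursor markers were called lower in 2 of 3 and 2 of 4, with sums of 464 to 620 against 168 to 364 CPM and 465 to 797 against 241 to 532. The counts were 4 of 5 with the empty vector without the libraries under 10000 genes, 4 of 5 with g4 without the library of animal 19, and 1 of 4 with g4 and library totals alone. Of the excitatory neuron transcription factors, Foxp2, Bcl11b and Tle4 were called lower with both vectors, 3 of 10 and 3 of 11 tested. Of the astrocyte markers 1 of 5 (Slc1a2) was called lower with the empty vector and 0 of 6 with g4, and 0 endothelial or mural markers had enough counts to be tested. The part of these differences in the levels of Sox6, Maf, Prox1 and Satb1 was not tested.

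Abundant markers of these lists are given as mean CPM in HA-negative and HA-positive libraries with the empty vector (n = 7 each), as levels without a test. For the striatal list they were Pde10a at 562 and 84.6 and Foxp1 at 248 and 89.2. For the oligodendrocyte list they were Myrf at 174 and 295 and Trf at 236 and 2.87. Myrf, which encodes a transcription factor of myelination, thus had the higher mean in HA-positive nuclei with the empty vector, unlike Trf, while with g4 its means were 167 and 126. For the microglia list they were Ctss at 87.1 and 8.34 and Csf1r at 83.2 and 6.33. For the precursor list they were Tnr at 223 and 174, Ptprz1 at 147 and 62.2 and Vcan at 49.1 and 6.66. For the astrocyte list they were Slc1a2 at 1049 and 629, Slc1a3 at 103 and 94.1 and Gja1 at 46.3 and 27.0. For the excitatory list they were Cux2 at 57.5 and 87.5 and Cux1 at 64.7 and 80.9. For the endothelial and mural list they were Flt1 at 9.49 and 10.3, Rgs5 at 7.17 and 6.7 and Pdgfrb at 5.51 and 0.465.

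Set against GABA transcripts of the same library, the regulators sorted differently. Counts of each member were divided by the summed counts of Gad1, Gad2 and Slc32a1, whose median was 277 and 609 in empty HA-negative and HA-positive libraries and 269 and 682 in g4 ones. Lhx6 stood at 1.37 ± 1.32 per 100 such counts (SD, n = 7) in empty HA-negative and 2.51 ± 2.09 in empty HA-positive libraries, and at 1.58 ± 0.58 and 2.98 ± 0.97 with g4, higher in 6 of 7 animals each time. Prox1 went the other way, from 5.32 ± 2.92 to 1.21 ± 0.87 with the empty vector and from 5.40 ± 0.83 to 2.04 ± 1.29 with g4. The Prox1 ratio was lower in 7 of 7 animals each time, with g4 ranges of 4.35 to 6.40 and 0 to 3.51. Gad1, Gad2 and Slc32a1 were themselves called higher in HA-positive nuclei, which lowers ratios there. How many of all genes fall alike on this scale was not computed. In CPM Prox1 was higher in HA-positive nuclei in 3 of 7 animals with each vector and was not called. Npas1 stood at 0.290 ± 0.43 and 1.50 ± 0.51 with the empty vector, higher in 7 of 7, and at 1.25 ± 2.14 and 0.783 ± 0.92 with g4, higher in 4 of 7. Sox6, Satb1, Maf, Adarb2, Dlx1 and Dlx6os1 each had a lower mean per GABA transcript in HA-positive than in HA-negative libraries with both vectors. Their ranges overlapped. They were lower in 6 (Sox6, Adarb2), 5 (Satb1, Dlx6os1) and 4 (Maf, Dlx1) of 7 animals with the empty vector. With g4 it was 6 (Maf, Dlx6os1), 5 (Adarb2), 4 (Sox6, Satb1) and 3 (Dlx1) of 7. For Satb1 the means in HA-negative and HA-positive libraries were 19.8 and 14.5 with the empty vector and 27.6 and 23.5 with g4. The g4 HA-negative values of Satb1 ran from 16.4 to 51.8 (median 25.2), against a g4 HA-positive median of 22.4. Those of Sox6 ran up to 18.8, with medians of 5.10 and 4.99 in g4 HA-negative and HA-positive libraries. The fewest GABA counts in a g4 HA-negative library were 85, and means without that library were not computed. Without the library of animal 19 the g4 HA-positive means were 3.28 ± 0.60 for Lhx6, 1.99 ± 1.40 for Prox1, 0.913 ± 0.93 for Npas1 and 23.6 ± 4.26 for Satb1 (n = 6). The HA-negative fraction also held striatal markers, whose neurons use GABA too, and these ratios were not tested.

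**Figure D4:**
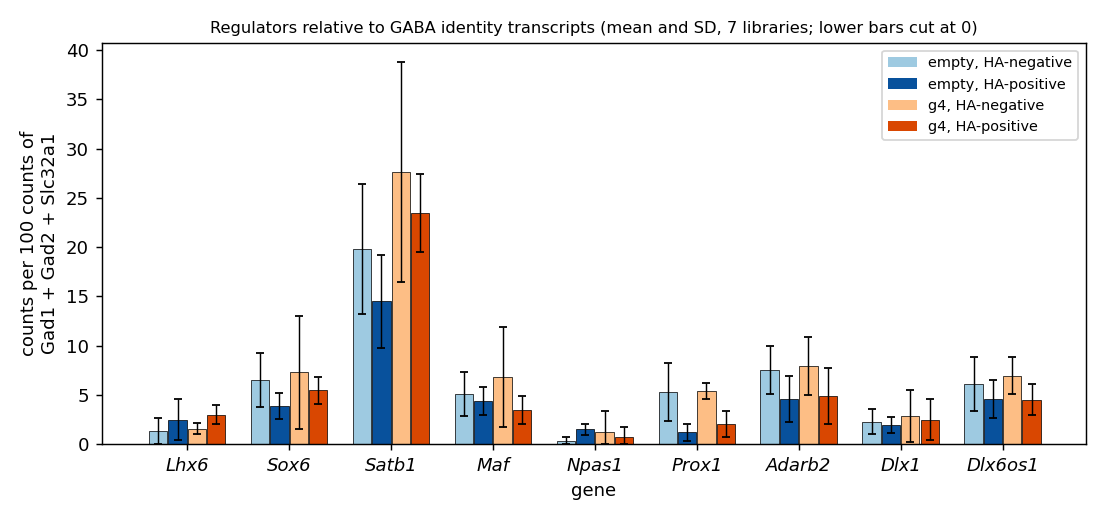
Counts of each regulator per 100 counts of Gad1, Gad2 and Slc32a1 in the same library (vertical axis, linear from 0), by gene, vector and fraction; bars are means and whiskers the SD over 7 libraries, cut at 0. Lhx6 is higher and Prox1 lower in HA-positive libraries with both vectors, and Satb1 has the highest ratio in every group.

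The second question is whether g4 changed the regulators against the empty vector. In HA-positive nuclei 0 of 6 tested members were called by edgeR, where 0.0599% of 5011 genes were. Below an unadjusted p of 0.05 lay 1 member of the 6, and 6.69% of the 5011 genes. DESeq2, limma voom, the fit with the animal as a block and the fit without the library of animal 19 called 0 members as well. The member under 0.05 was Maf, which had 62.4 ± 25.9 CPM after the empty vector and 36.2 ± 14.9 after g4 (SD, n = 7). It had a log2 fold change of -0.82 ± 0.34 (unadjusted p 0.0224, adjusted p 0.729) and was lower with g4 in 7 of 7 animals, with overlapping ranges (32.9 to 96.3 and 22.3 to 61.3). Over all alternatives its log2 fold change lay between -1.03 and -0.63 and its adjusted p between 0.368 and 0.855. The share of all genes lower in 7 of 7 animals was not computed. Uncalled genes of other lists lay below 0 too: 4 of 4 GABA identity genes (median -0.56, against -0.0066 over all genes). Below 0 were also 8 of 10 medial (median -0.29) and 5 of 7 caudal subclass markers (-0.47). Of the other medial regulators 4 of 5 lay above 0 (median 0.28).

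The other tested members lay on both sides of 0. Satb1 was at 193 ± 44.2 and 249 ± 46.3 CPM (0.30 ± 0.18, adjusted p 0.754, higher with g4 in 5 of 7 animals). Sox6 was at 54.9 ± 21.8 and 62.0 ± 30.7 (0.14 ± 0.35) and Lhx6 at 36.1 ± 30.2 and 33.4 ± 14.4 (-0.14 ± 0.52). Adarb2 was at 58.6 ± 25.4 and 49.4 ± 20.8 (-0.34 ± 0.33) and Dlx6os1 at 62.9 ± 25.2 and 47.3 ± 13.5 (-0.48 ± 0.30). The adjusted p of the 6 ranged from 0.729 to 0.974. Among the untested members, Npas1 had 62 counts with the empty vector and 29 with g4, at 20.8 ± 7.76 and 9.07 ± 10.5 CPM, lower in 6 of 7 animals (-1.24 ± 0.70 without a filter, adjusted p 0.485). Prox1, the member with miR-124 seed matches, was at 15.2 ± 11.3 and 20.3 ± 11.2 CPM (0.37 ± 0.61 without a filter, adjusted p 0.855), and Dlx1 at 27.0 ± 12.0 and 23.7 ± 14.1.

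In HA-negative nuclei 0 of 6 tested members were called, as were 0% of 6262 genes. Below an unadjusted p of 0.05 lay 0 members and 3.77% of those genes. DESeq2 and limma voom called 0 members as well. Satb1 was at 99.0 ± 21.2 and 120 ± 18.5 CPM (0.25 ± 0.17), Sox6 at 33.5 ± 14.9 and 30.1 ± 15.6 and Maf at 26.3 ± 11.0 and 27.6 ± 10.7. Prox1 was at 27.2 ± 13.6 and 25.5 ± 7.78 (-0.05 ± 0.36), Adarb2 at 39.0 ± 12.7 and 35.2 ± 10.9 and Dlx6os1 at 31.0 ± 13.3 and 31.6 ± 8.76. All 6 had an adjusted p of 0.999. The untested members had levels of 7.15 ± 7.17 and 7.37 ± 3.13 (Lhx6), 11.7 ± 6.48 and 13.9 ± 12.5 (Dlx1) and 1.41 ± 2.26 and 4.00 ± 5.76 (Npas1).

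The difference between the g4 effects in HA-positive and HA-negative nuclei was tested for 8 members and called for 0, as for 0% of 7197 genes. By edgeR 0 members and 4.99% of those genes lay below an unadjusted p of 0.05. DESeq2 and limma voom called 0 members as well. The log2 differences were -0.83 ± 0.48 for Maf (unadjusted p 0.0902) and between -0.49 and 0.39 for the other 7. Npas1, fitted without a filter, was at -2.50 ± 1.20 (adjusted p 0.614). The SE of these differences, which holds counting error and the spread between animals alike, was 0.24 for Satb1 and 0.44 to 0.81 for the other 7. Of the other regulators, the interneuron markers and the other cell type markers, 0 were called by edgeR in any of these 3 comparisons, while DESeq2 called 1 GABA identity gene and 1 medial subclass marker lower with g4 in HA-positive nuclei.

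Genes whose log2 CPM followed a regulator most closely over the 28 libraries were looked up among 5848 genes with a mean of at least 20 CPM. For Lhx6 they were the kinase gene Grk3 (Pearson r 0.82), Nek7 (0.81), Lgi2 (0.81), the neurexophilin gene Nxph1 (0.80), which is itself on the medial subclass list, and Slc24a2 (0.79). After the group means were taken out, their r lay between 0.60 and 0.66. For Adarb2 they were Cnr1 (0.67), on the caudal subclass list, Aurkaip1 (0.66), Rapgef5 (0.66), Pitpna (0.66) and Nt5dc3 (0.63), with 0.56 to 0.59 within groups. The libraries share animals, sorted fractions and depth differences, so these correlations are descriptions without a test.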

How the data were processed

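Nuclear RNA libraries of sorted nuclei, 28 in all, were analysed. The authors deposited raw counts per gene for each library, per the labels, with no aligner, counting program or strand setting given in the sources used here. The submitters' processing notes name the build GRCm38. Cells without a value were read as 0, and 1 entry of 41550 without a gene name, which held no count, was left out. Groups and animal numbers came from the sample titles, and descriptions tied samples to columns. The columns of animals 21, 22 and 23 carry the numbers 22, 23 and 24 in all 4 groups; the numbers in the titles are used here. Levels are CPM with TMM factors over all libraries.

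Tests used edgeR 4.0.16 under R 4.3.3 (low counts removed by filterByExpr, TMM factors, robust quasi-likelihood fit, two-sided), fitted on all genes with Benjamini-Hochberg adjustment, in 5 comparisons. Each used its own 2 groups, and the difference used all 4. Positions and 3′ UTRs are from GENCODE M21. The members and gene lists were chosen with earlier results of these data known. All 9 members are named; from each list at most 3 called genes per direction with the largest change, the 3 most abundant markers of each list of other cells, and the 5 genes closest to Lhx6 and Adarb2; markers named as at 0 were chosen after their values were seen. Some genes that this rule names are not reported here. The script was tested on simulated data.

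Same-numbered libraries come from the same animal, which pairs them; the correlation of their deviations from group means was -0.11 to 0.15. Alternatives were DESeq2 1.42.0, limma 3.58.1 voom, other scalings, no filter, the animal as a block, 1 model for all libraries and libraries or animals left out.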

Additional observations from a re-analysis of the deposited data

Results flagged for a closer look

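In 3 of 40 sets of 7 libraries 1 library lay far from the other 6 by Dixon's criterion, where chance gives about 1 in 20. Npas1 stood at 6.04 CPM in the empty HA-negative library of animal 19, which rests on 3 counts. Dlx1 stood at 24.8 CPM in the empty HA-negative library of animal 17 and at 52.2 CPM in the g4 HA-positive library of animal 23.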

How the results depend on the processing

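Satb1 kept its call between fractions under every alternative, and 0 members were called between vectors, or for the difference, under any. Between fractions with the empty vector, 2 members were called. Without a filter there were 4 (Lhx6, Satb1, Maf and Npas1), and 4 (Lhx6, Satb1, Maf and Dlx6os1) with all 28 libraries in 1 model or without HA-positive libraries under 10000 genes. Over all genes, more were called without a filter and with 1 model too, as given below. Leaving out 1 animal gave 1 to 3, with Satb1 alone without animal 17, 19 or 20. With g4, 2 were called, and 1 (Satb1) with limma voom, with library totals alone or without libraries under 10000 genes. Leaving out 1 animal, or the g4 HA-positive library of animal 19, gave 1 to 3. Where Lhx6 or Npas1 is among the called, it passed the count filter through its HA-positive counts or was fitted without one. Such a call is not counted as a result here. The replicate block (the animal as a block) left the called members as they were, 2 with the empty vector, 2 with g4 and 0 elsewhere. The medial to caudal ratio without Adarb2 was 9.15, 6.30, 10.8 and 13.5 in empty HA-negative, g4 HA-negative, empty HA-positive and g4 HA-positive libraries, and 1.03, 1.04, 1.91 and 1.82 without Satb1.

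Directions that reversed were all of changes that were not called. For g4 against empty in HA-positive nuclei, Lhx6 was at 0.52 with limma voom, 0.19 with the block, 0.05 without the g4 library of animal 19 and -0.34 to 0.49 with 1 animal left out, and Sox6 was at -0.044 without libraries under 10000 genes and -0.038 to 0.33 with 1 animal left out. In HA-negative nuclei, Maf was at -0.040 with limma voom, -0.0055 with library totals alone and -0.052 to 0.17 with 1 animal left out, and Prox1 at 0.32 with limma voom, 0.029 with the block and -0.23 to 0.17. With 1 animal left out, Sox6 ranged from -0.46 to 0.10, Adarb2 from -0.38 to 0.0046 and Dlx6os1 from -0.094 to 0.20 there, and the difference between effects from -0.74 to 0.58 for Lhx6, -0.049 to 0.16 for Satb1 and -0.49 to 0.22 for Adarb2. The cause was not tested.

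Over all genes, 3 were called between vectors in HA-positive nuclei, and 11 with DESeq2, 1 with limma voom or the block, 8 with all libraries in 1 model, 28 without a filter, 5 without the g4 library of animal 19, 1 without animal 18 and 0 without libraries under 10000 genes. In HA-negative nuclei DESeq2 called 1, and for the difference 3 were called without a filter. Between fractions the counts of 388 and 401 became 661 without a filter, 612 with 1 model and 251 without animal 19 for the empty vector, and 259 with library totals alone and 218 to 241 without animal 20, 21 or 22 for g4.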
